A study of Mus musculus with 12 samples.

Results

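The 10 genes described here are the immediate early AP-1 and Egr genes of the mouse: Fos, Fosb, Jun, Junb, Jund, Atf3, Egr1, Egr2, Egr3 and the phosphatase gene Dusp1. They were taken by gene symbol from the raw count tables of spleen and axillary lymph node, which list 23284 symbols each, and all 10 were found in both tables. All 10 also passed the filter on low counts in every fit. Poly(A) RNA was sequenced from 4 groups of 3 libraries each: spleens of DKO mice, spleens of DKO/hA-I mice, axillary lymph nodes of DKO mice and axillary lymph nodes of DKO/hA-I mice. DKO mice lack apoE, the ligand that lets the liver take up lipoprotein remnants, and also apoA-I, which forms the core of high density lipoprotein particles. DKO/hA-I mice carry the same double deficiency and in addition overexpress human apoA-I, so neither genotype is wild type. The sources used here do not give the promoter that drives the human gene. All mice were 30 weeks old and ate normal laboratory diet.

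Immediate early genes are transcribed within minutes of a stimulus by factors that are already present in the cell, such as serum response factor and CREB, and their transcripts are short-lived. Fos proteins pair with Jun proteins to form AP-1, a family of leucine zipper factors that carry signals from MAP kinases to target genes. The Egr genes encode zinc finger factors that bind GC-rich DNA, and in lymphocytes and macrophages they follow antigen receptor and growth factor signals. Atf3 is a stress-induced member of the ATF family that mostly represses transcription, and Dusp1 encodes a phosphatase that switches MAP kinases off.

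Library totals were 8966001 to 11237680 counts in spleen and 5911835 to 11950825 in lymph node, the lowest being lymph node DKO replicate 2. Values below are CPM, read counts scaled to a common library size with TMM factors over the 12 libraries, and a floor of 3 counts corresponds to 0.251 to 0.507 CPM. Tissue markers fitted the labels: Glycam1, of lymph node high endothelial vessels, stood at 0.331 CPM or less in spleens and at 46.0 to 177 CPM in nodes, and Spic, of red pulp macrophages, at 100.2 to 110 CPM in spleens and 17.4 to 31.1 CPM in nodes. The middle number of the animal code was 75 for all 3 DKO nodes and 76, 77 and 78 for the DKO/hA-I nodes, so code number and genotype cannot be told apart in lymph node. In spleen the code numbers 55 and 57 occur in both genotypes. The pseudogene Rpl31-ps12 was near 0 in spleens labelled DKO and in nodes labelled DKO/hA-I and at 52.7 to 90.2 CPM in the other 6 libraries, so it ran in opposite directions in the tissues. Every direction given here is taken from the labels. The mouse genes Apoa1 and Apoe are targeted in both genotypes and do not check the labels. They stood at 0 to 1.3 CPM and at 7.9 to 17.8 CPM.

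Jund and Junb were the most abundant of the 10 genes and Fosb the least in all 4 groups, on a scale per kilobase of transcript. In spleen DKO the means were 56.4 ± 5.15 CPM per kb for Junb, 56.1 ± 6.35 for Jund and 36.9 ± 9.98 for Dusp1, followed by Egr1 (18.6 ± 14), Jun (16.7 ± 4.27), Fos (8.44 ± 2.11), Egr2 (5.12 ± 2.16), Egr3 (3.7 ± 0.671), Atf3 (3.22 ± 0.618) and Fosb (0.602 ± 0.281; SD, n = 3). In this group the libraries did not overlap between Jund and Dusp1, between Jun and Fos and between Atf3 and Fosb, and each other pair of neighbours overlapped. In spleen DKO/hA-I the order was Junb (48.1 ± 3.1 CPM per kb), Jund (46.6 ± 7.25), Dusp1 (21.3 ± 0.652), Jun (11.4 ± 1.3), Egr1 (11.2 ± 3.32), Fos (5.06 ± 1.04), Egr3 (3.63 ± 0.834), Egr2 (3.62 ± 1.16), Atf3 (2.6 ± 0.192) and Fosb (0.577 ± 0.145). There Dusp1 stood apart from both neighbours, Egr1 from Fos, and Atf3 from Fosb.

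In lymph node Atf3 held another place in that order. In lymph node DKO the order was Jund (67.5 ± 2.07 CPM per kb), Junb (54.5 ± 6.02), Atf3 (45.5 ± 33), Dusp1 (40.5 ± 24.9), Jun (23.4 ± 3.91), Egr2 (13.5 ± 5.61), Egr1 (12.3 ± 1.75), Fos (10.7 ± 3.89), Egr3 (3.45 ± 1.57) and Fosb (0.721 ± 0.206). In lymph node DKO/hA-I it was Jund (49.9 ± 0.673 CPM per kb), Junb (46.7 ± 15.7), Dusp1 (31.7 ± 5.12), Egr1 (28.7 ± 19.3), Fos (21.8 ± 30.7), Jun (16.6 ± 5.91), Atf3 (5.62 ± 1.13), Egr2 (4.72 ± 1.28), Egr3 (4.27 ± 0.79) and Fosb (3.01 ± 4). Atf3 was thus the third most abundant member in DKO nodes, seventh in DKO/hA-I nodes and ninth in both spleen groups. In DKO nodes its libraries overlapped those of Junb above it and Dusp1 below it. The neighbours that stood apart in DKO nodes were Jund and Junb, Jun and Egr2, Fos and Egr3, and Egr3 and Fosb. In DKO/hA-I nodes only Jun and Atf3 did.

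The promoter windows of the 5 genes whose values stand out below are given here from RefSeq on GRCm38.p6, with 250 bases before the start of transcription and 50 after it, on the strand of the gene. RefSeq windows were used for 8 of the 10 members. Egr3 had none, and the promoter of Egr1 is not reported here. Capitals mark the motifs that were searched for on both strands. These were the CArG box bound by serum response factor, the cyclic AMP response element TGACGTCA, the AP-1 site TGACTCA, the Egr sites GCGGGGGCG and GCGTGGGCG, and the TATA box TATAAA. Atf3 (chr1:191183284-191183583, minus strand) and Egr2 (chr10:67537619-67537918, plus strand, 1 of its 5 windows) are the members with the smallest p between the genotypes in lymph node. Fos (chr12:85473640-85473939, plus strand) and Fosb (chr7:19309996-19310295, minus strand) are those that stood far apart in 1 node. Dusp1 (chr17:26508423-26508722, minus strand) had the smallest p in spleen.
Atf3: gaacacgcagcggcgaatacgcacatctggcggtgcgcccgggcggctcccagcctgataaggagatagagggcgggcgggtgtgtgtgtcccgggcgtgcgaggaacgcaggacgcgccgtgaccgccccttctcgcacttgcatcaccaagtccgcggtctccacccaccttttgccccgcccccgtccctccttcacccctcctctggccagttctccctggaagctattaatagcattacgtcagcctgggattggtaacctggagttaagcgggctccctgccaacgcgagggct
Egr2: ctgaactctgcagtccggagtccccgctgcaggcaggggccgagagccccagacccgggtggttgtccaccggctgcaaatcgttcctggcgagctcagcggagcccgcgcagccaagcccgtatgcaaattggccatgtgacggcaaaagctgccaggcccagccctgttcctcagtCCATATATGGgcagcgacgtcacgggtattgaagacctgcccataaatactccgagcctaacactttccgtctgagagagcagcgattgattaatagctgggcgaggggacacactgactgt
Fos: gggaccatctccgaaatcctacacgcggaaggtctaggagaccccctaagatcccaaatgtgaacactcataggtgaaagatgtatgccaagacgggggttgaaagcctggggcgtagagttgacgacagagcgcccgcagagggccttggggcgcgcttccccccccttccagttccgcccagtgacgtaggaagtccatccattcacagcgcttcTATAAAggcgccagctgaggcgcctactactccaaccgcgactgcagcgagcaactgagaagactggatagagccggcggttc
Fosb: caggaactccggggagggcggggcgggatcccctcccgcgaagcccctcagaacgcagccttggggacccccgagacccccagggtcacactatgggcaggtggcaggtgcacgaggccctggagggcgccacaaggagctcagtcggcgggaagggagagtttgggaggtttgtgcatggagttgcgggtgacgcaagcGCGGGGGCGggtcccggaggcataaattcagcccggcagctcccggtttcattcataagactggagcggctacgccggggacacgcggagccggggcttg
Dusp1: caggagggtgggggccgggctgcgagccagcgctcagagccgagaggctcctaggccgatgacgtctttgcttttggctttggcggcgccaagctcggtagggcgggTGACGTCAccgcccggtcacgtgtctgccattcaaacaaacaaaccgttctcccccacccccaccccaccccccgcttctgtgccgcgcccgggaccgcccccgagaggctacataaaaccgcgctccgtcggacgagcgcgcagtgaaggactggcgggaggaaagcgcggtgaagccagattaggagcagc

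The Egr2 window holds the CArG box CCATATATGG 72 to 63 bases before the start (positions -72 to -63). Of its 5 RefSeq windows, 4 hold a CArG box, and the window shown is among them. The windows starting at 67537620 and 67537680 overlap the one shown and hold the same box. The window starting at 67537316 holds another, CCTTTTTTGG. Fosb holds the Egr site GCGGGGGCG at positions -50 to -42, Fos a TATA box at -33 to -28, and Dusp1 the element TGACGTCA at -143 to -136. Junb, not shown, has TATAAA at positions 1 to 6. These letters were not found in the windows of Atf3, Jun and Jund. Among all 32851 RefSeq windows of this length, 1.63% hold a CArG box, 1.79% TGACGTCA, 5.2% TGACTCA, 3.47% an Egr site and 13.6% TATAAA.

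In lymph node 1 high library set the DKO/hA-I means of Fos and Fosb. Fos (chromosome 12, 85473890 to 85477274, plus strand), the classic partner of Jun in AP-1, had 21.0, 12.7 and 19.7 CPM in DKO spleens, against 8.30, 12.6 and 11.1 CPM in DKO/hA-I spleens. The groups did not overlap, but DKO replicate 2 and DKO/hA-I replicate 2 were nearly level. In lymph node Fos had 22, 14.5 and 30.9 CPM in DKO libraries, against 9.11, 121 and 7.85 CPM in DKO/hA-I libraries. The DKO nodes all lay above DKO/hA-I replicates 1 and 3 and far below replicate 2.

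Fosb (chromosome 7, 19302696 to 19310118, minus strand), a second Fos family gene, had the lowest counts of the 10 genes. It had 2.65, 1.08 and 3.1 CPM in DKO spleens, against 2.03, 2.79 and 1.72 CPM in DKO/hA-I spleens, from 11 to 31 counts per library in DKO. In lymph node it had 2.97, 1.86 and 3.35 CPM in DKO libraries, against 2.14, 28.8 and 3.23 CPM in DKO/hA-I libraries. The value of 28.8 CPM rests on 319 counts and belongs to the library in which Fos was high, and the other 11 libraries lay between 1.08 and 3.35 CPM.

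The Jun family varied less. Jun (chromosome 4, 95049036 to 95052222, minus strand), the prototype AP-1 subunit, had 65.9, 38.8 and 54.6 CPM in DKO spleens, against 31.9, 39.9 and 37.8 CPM in DKO/hA-I spleens. In nodes it had 77.8, 61.1 and 85.5 CPM in DKO libraries, against 59.3, 67.6 and 31.6 CPM in DKO/hA-I libraries. The genotypes overlapped in both tissues through 1 library on each side.

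Junb (chromosome 8, 84976909 to 84978748, minus strand), a Jun protein that can restrain Jun, had 108, 91.3 and 107 CPM in DKO spleens, against 81.2, 92.4 and 87.5 CPM in DKO/hA-I spleens. In nodes it had 109, 87.2 and 99.7 CPM in DKO libraries, against 71.0, 117 and 65.4 CPM in DKO/hA-I libraries. In nodes the DKO/hA-I group held both the highest and the lowest values. Jund (chromosome 8, 70697739 to 70700616, plus strand), the Jun gene with steady expression in resting cells, had 115, 114 and 109 CPM in DKO nodes, against 84.3, 83.4 and 82.1 CPM in DKO/hA-I nodes. The groups were clearly apart and tight. In spleen the groups overlapped, with 82.3, 103 and 95.5 CPM in DKO libraries, against 64.9, 88.9 and 79.1 CPM in DKO/hA-I libraries.

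Atf3 (chromosome 1, 191170296 to 191183333, minus strand) had 98.6, 21.1 and 151 CPM in DKO nodes, against 13.2, 8.77 and 11.5 CPM in DKO/hA-I nodes. Every DKO node was above every DKO/hA-I node, and DKO replicate 2 was several times lower than the other DKO nodes. In spleen it had 7.51, 5.08 and 6.6 CPM in DKO libraries, against 5.47, 5.29 and 4.74 CPM in DKO/hA-I libraries. All 6 spleens lay below all 6 nodes.

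The Egr genes did not move together. Egr1, the most widely induced of the family, had 42.8, 32.2 and 37.3 CPM in DKO nodes, against 55.0, 155 and 51.8 CPM in DKO/hA-I nodes, with every DKO node below every DKO/hA-I node. In spleen it had 105, 28.8 and 35.4 CPM in DKO libraries, against 23.5, 34.5 and 43.6 CPM in DKO/hA-I libraries. DKO replicate 1 was the single high spleen and the other 5 overlapped.

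Egr2 (chromosome 10, 67534469 to 67542188, plus strand), which acts in macrophages and in T cell unresponsiveness, ran the other way in nodes. It had 42.5, 22.3 and 55.3 CPM in DKO nodes, against 18.0, 13.4 and 10.5 CPM in DKO/hA-I nodes, and the groups did not overlap. In spleen it had 22.5, 12.2 and 10.8 CPM in DKO libraries, against 6.89, 11.8 and 13.5 CPM in DKO/hA-I libraries, which overlapped. Egr3 (chromosome 14, 70077317 to 70082613, plus strand), often induced with Egr2 in T cells, lay between 7.25 and 19.6 CPM in all 12 libraries, with overlapping genotypes in both tissues.

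Dusp1 (chromosome 17, 26505591 to 26508472, minus strand) had 84.8, 50.4 and 84.8 CPM in DKO spleens, against 43.9, 41.6 and 41.6 CPM in DKO/hA-I spleens. The genotypes did not overlap. In nodes it had 76.9, 32.9 and 132 CPM in DKO libraries, against 53.7, 74.0 and 61.8 CPM in DKO/hA-I libraries. The DKO nodes held both the lowest and the highest value. Reads of Jun, Junb, Jund, Atf3 and Dusp1 may include some from genes annotated over them (Junos, Prdx2, Gm11175, Gm24748 and Ergic1 among others), since no strand setting of the counting is stated in the sources used here.

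The first comparison asks which genes differ in spleen when human apoA-I is absent. In DKO spleens, against DKO/hA-I spleens, no member passed the test, and 1 gene of 14009 did (0.00714%). All 10 members had a positive log2 fold change, against 51.6% of all genes tested, with a median of 0.39 over the members and 0.01 over all genes. Fos (1.66-fold), Dusp1 (1.72-fold) and Jun (1.45-fold) had an unadjusted p under 0.05, as did 4.4% of all genes. In whole-tissue RNA, fewer cells of a type and less RNA per cell cannot be told apart.

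Dusp1 had the smallest p of the members (log2 fold change 0.79 ± 0.19, SE; unadjusted p = 0.00218, edgeR adjusted p = 0.928), ranking 21 among the 14009 genes. Fos followed with a log2 fold change of 0.73 ± 0.23 and Jun with 0.53 ± 0.19 (unadjusted p = 0.00938 and 0.0193, edgeR adjusted p = 0.928 for both). Fos and Dusp1 were the members with groups that did not overlap, all DKO spleens being higher, as in 5.08% of all genes. Egr1 had 0.73 ± 0.53, Egr2 0.49 ± 0.34, Atf3 0.3 ± 0.21, Jund 0.26 ± 0.14 and Junb 0.22 ± 0.11, and Fosb and Egr3 were at 0.05 ± 0.38 and 0.02 ± 0.2. DESeq2 and the authors' deposited table also called 0 of the 10 members in spleen. The authors' deposited table called 8 genes in all (0.0344% of its genes).

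The spleen values were spread unevenly over the libraries. DKO replicate 1 had the highest value of the 6 spleens for 6 members (Fos, Jun, Junb, Atf3, Egr1 and Egr2), against 20.3% of all genes. DKO/hA-I replicate 1 had the lowest value for 7 members, against 21.9% of all genes. Without DKO replicate 2, Dusp1 passed the test with a log2 fold change of 1.01 (edgeR adjusted p = 0.0163), and without DKO replicate 1 the log2 fold change of Egr1 was -0.10.

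The animal codes were taken as a possible batch. Between the libraries of code number 55, 1 of each genotype (DKO replicate 3 and DKO/hA-I replicate 1), all 10 members were higher in DKO, with a log2 difference of 1.25 for Fos, 0.95 for Dusp1 and 0.01 for Egr3. Within code number 57, DKO replicate 2 was set against the mean of DKO/hA-I replicates 2 and 3. The log2 difference there was 0.30 for Jund, 0.28 for Dusp1, 0.11 for Egr3, 0.10 for Fos and 0.02 for Junb and Atf3. It was -0.001 for Jun, -0.05 for Egr2, -0.44 for Egr1 and -1.07 for Fosb. Code number 56 occurs in DKO replicate 1 alone, so with the code number as a block that library adds nothing to the log2 fold change. With the code number as a block, 515 genes were called in spleen and again 0 of the 10 members. There the log2 fold changes of Jund, Dusp1 and Fos were 0.395, 0.56 and 0.58 (edgeR adjusted p = 0.0636, 0.0874 and 0.25).

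Heat shock genes, which respond to protein damage, also differed between the spleens. In DKO spleens the log2 fold change was positive for 12 of 12 heat shock genes (median 0.81) and 0 of 12 passed the test, with 6 of 12 at an unadjusted p under 0.05. Their summed level was 8004, 2810 and 4884 CPM in DKO spleens, against 3894, 2416 and 2925 CPM in DKO/hA-I spleens. The inducible Hspa1b had 176, 5.67 and 80.2 CPM in DKO spleens, against 11.7, 7.98 and 5.43 CPM in DKO/hA-I spleens. DKO replicate 1, highest for 6 of the AP-1 and Egr genes, was also highest for Hspa1b, and DKO replicate 2, lowest of the DKO spleens for 7 of them, was the lowest of the DKO spleens for it. Among DKO/hA-I spleens the order was the other way, as replicate 1, lowest of the 6 spleens for 7 members, had the highest heat shock sum and Hspa1b value of its group. Erythroid genes had sums of 8111, 39680 and 22330 CPM in DKO spleens, against 12620, 18200 and 11790 CPM in DKO/hA-I spleens, so that DKO replicate 2 was the highest. Of the 12 cell type marker lists 0 genes were called in spleen. The part of heat shock and erythroid genes in the spleen values was not tested.

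**Figure D1:**
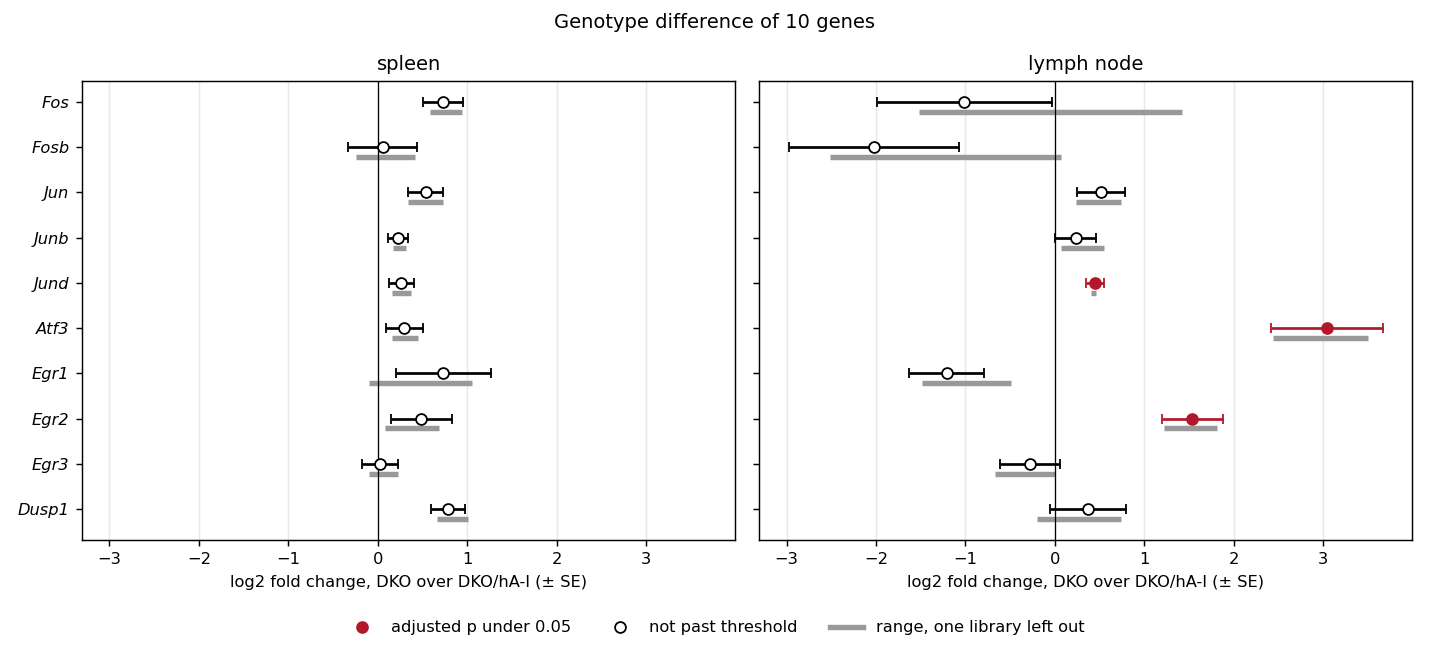
Log2 fold change of DKO over DKO/hA-I for the 10 genes in spleen and in lymph node, with bars of ± 1 SE (edgeR, n = 3 against 3). Filled red points passed an adjusted p of 0.05, and grey bars give the range when 1 library is left out. In lymph node Atf3, Egr2 and Jund are filled, and the grey bars of Fos and Fosb reach across 0.

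The same comparison in lymph node called 3 members higher in DKO nodes, against DKO/hA-I nodes: Atf3, Egr2 and Jund, which rose 8.21-fold, 2.9-fold and 1.36-fold. None of the 10 was called lower. These 3 were also the members higher in every DKO node, as 15.6% of all genes were. Among all 14012 genes tested, 962 were called (6.87%), 3.95% higher and 2.92% lower. The members had 6 positive log2 fold changes of 10, against 51.6% of all genes, with a median of 0.30 over the members and 0.02 over all genes.

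Atf3 had a log2 fold change of 3.04 ± 0.63 (SE; edgeR adjusted p = 0.0337). Egr2 had 1.54 ± 0.34 (edgeR adjusted p = 0.0399) and Jund 0.45 ± 0.1 (edgeR adjusted p = 0.0463). The change of Jund was small and its libraries agreed closely, while that of Atf3 was large with a wide spread. Egr1, in contrast, was lower in every DKO node without passing the test (log2 fold change -1.21 ± 0.42, edgeR adjusted p = 0.128), as 14.9% of all genes were lower in all DKO nodes. DESeq2 called Egr1 as well (adjusted p = 0.0234), among 1982 genes.

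Fos and Fosb had negative log2 fold changes, -1.01 ± 0.97 and -2.02 ± 0.95 (edgeR adjusted p = 0.57 and 0.236). Both rest on DKO/hA-I replicate 2: without it they were 1.42 and 0.07 (edgeR adjusted p = 0.112 and 0.952). DESeq2 gave no p for Fosb. Jun had 0.52 ± 0.27, Dusp1 0.37 ± 0.42, Junb 0.23 ± 0.23 and Egr3 -0.28 ± 0.33 (edgeR adjusted p = 0.29, 0.64, 0.579 and 0.653), and the genotypes overlapped in each.

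The 3 calls depended on all libraries but 1. Without DKO replicate 2 all 3 held, with log2 fold changes of 3.5 for Atf3, 1.81 for Egr2 and 0.43 for Jund among 2245 called genes. Without any other single library 0 of the 10 members were called, and 115 to 433 genes in all. There Atf3 had adjusted p values of 0.0736 to 0.138 and log2 fold changes of 2.43 to 3.17, Egr2 0.0829 to 0.147 and 1.22 to 1.75, and Jund 0.108 to 0.183 and 0.41 to 0.46. Without a filter on low counts Egr2 was called, while Atf3 and Jund were not (edgeR adjusted p = 0.0697 and 0.0619). In the authors' deposited table, 4 members were called in lymph node, Atf3 (q = 8.72e-13), Egr2 (q = 0.00185), Fosb (q = 0.00263) and Egr1 (q = 0.00825), among 784 genes (3.37%), and Jund was not (q = 0.956). The direction of that table is not stated in its header.

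**Figure D2:**
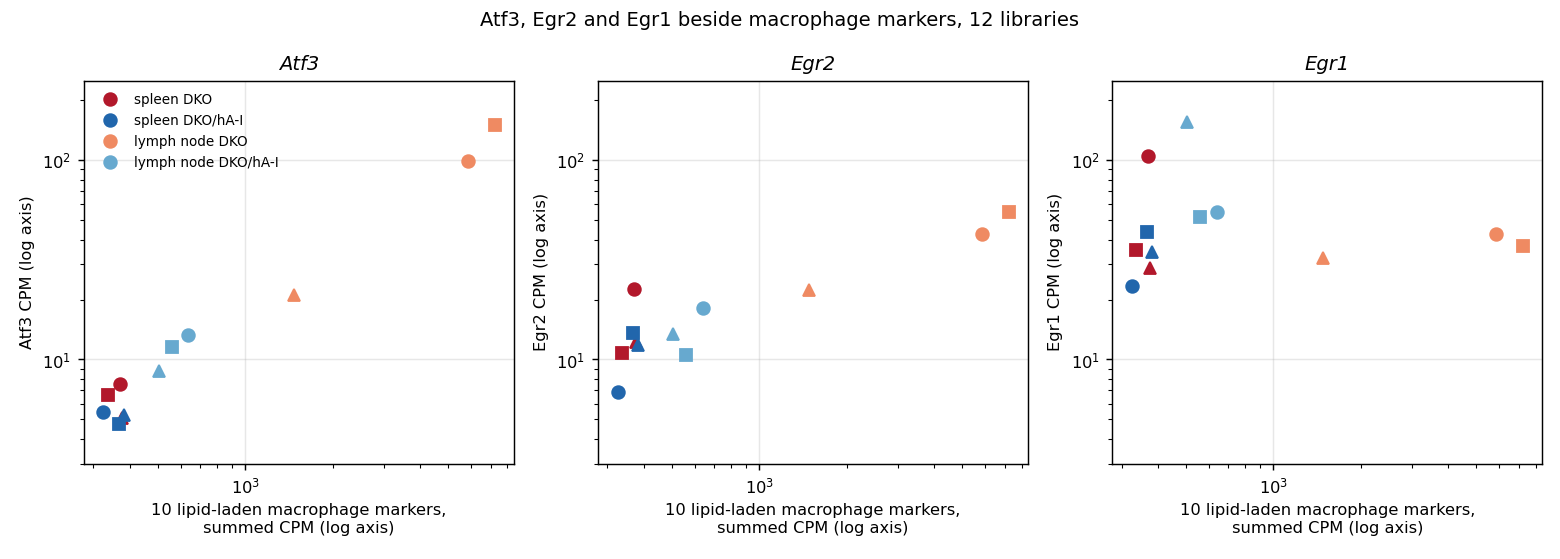
CPM of Atf3, Egr2 and Egr1 against the summed CPM of 10 lipid-laden macrophage markers in the 12 libraries, on log axes. Colours give the group and circle, triangle and square replicates 1, 2 and 3. The DKO nodes, at marker sums of 1478 to 7228 CPM, hold the 3 highest Atf3 values and the 2 highest Egr2 values, while Egr1 in them stays between 32.2 and 42.8 CPM.

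Cell type markers moved with the Atf3 and Egr2 values in lymph node. Of 10 markers of lipid-laden macrophages, 9 were called higher in DKO nodes, with a median log2 fold change of 3.3 and none at 0 counts. Their sum was 5838, 1478 and 7228 CPM in DKO nodes, against 637, 506 and 559 CPM in DKO/hA-I nodes. DKO replicate 2, lowest of the DKO nodes for 9 of the 10 AP-1 and Egr genes (45% of all genes were lowest there), was also lowest for this sum.

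Per 1000 CPM of these summed markers, a ratio chosen after the values were seen, Atf3 stood at 16.9, 14.3 and 20.9 in DKO nodes, against 20.7, 17.3 and 20.6 in DKO/hA-I nodes. Atf3 itself varied 17.2-fold over the 6 nodes, the marker sum 14.3-fold and their ratio 1.47-fold. In spleens the ratio was 20.3, 13.5 and 19.6 in DKO libraries, against 16.8, 13.8 and 12.9 in DKO/hA-I libraries. The markers summed to 336 to 377 CPM in DKO spleens and 325 to 383 CPM in DKO/hA-I spleens. In DKO spleens Gpnmb and Trem2 had means of 2.52 and 1.11 CPM, against 89.8 CPM for Lgals3. The spleen sum thus rests little on Gpnmb and Trem2, and its ratio is not like that in nodes. The ratio of Egr2 was 7.28, 15.1 and 7.65 in DKO nodes, against 28.3, 26.5 and 18.9 in DKO/hA-I nodes, and that of Egr1 varied 59.3-fold over the nodes. The ratio of Egr2 varied 3.89-fold over the nodes. Atf3 and the marker sum were both higher in every DKO node. Their ratio therefore cannot tell the genotype split from macrophage content. The part of macrophage content in the Atf3 and Egr2 values was not tested.

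Other cells also differed between the nodes. All 10 adipocyte markers were called lower in DKO nodes, with sums of 67, 126 and 109 CPM, against 1775, 2278 and 727 CPM in DKO/hA-I nodes. Of 10 fibroblastic stroma markers 5 were called higher, and of 10 endothelial markers 4 were called lower. All 8 B cell and all 8 T cell markers had negative log2 fold changes (medians -0.54 and -0.51) and 0 of them were called. Of 6 plasma cell and 8 neutrophil markers 1 each was called higher, DKO replicate 2 having the highest sums of the 6 nodes (8840 and 1448 CPM). Of 8 markers listed for red pulp macrophages, a cell type of spleen, 0 were called. Their sums were 1338 to 1774 CPM in DKO nodes, against 714 to 1265 CPM in DKO/hA-I nodes. These sums join opposite moves, as 5 of the 8 log2 fold changes were positive. Cd5l had means of 577 CPM in DKO nodes and 172 CPM in DKO/hA-I nodes, and Siglec1 231 and 387 CPM. Of 5 erythroid, 3 skeletal muscle and 2 epithelial markers tested 0 were called. The part of these cells in the values of the members was not tested.

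**Figure D3:**
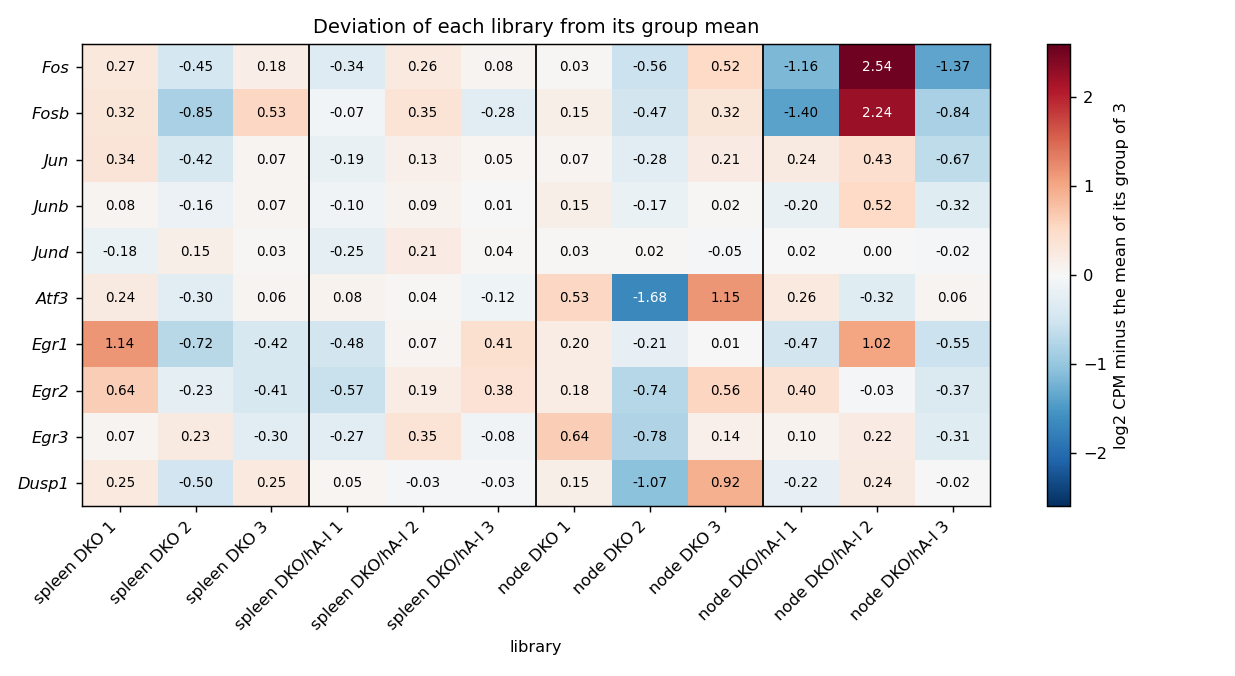
Log2 CPM of each of the 12 libraries minus the mean of its group of 3, for the 10 genes (red, above the group mean; blue, below). Lymph node DKO/hA-I replicate 2 reaches 2.54 for Fos and 2.24 for Fosb, lymph node DKO replicate 2 is below its group for every gene but Jund, and the deviations of Jund in the 6 nodes lie between -0.051 and 0.028.

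Within groups, several members had their highest or lowest value in the same library, with exceptions in each. Lymph node DKO/hA-I replicate 2 had the highest value of its group for 7 members (Fos, Fosb, Jun, Junb, Egr1, Egr3 and Dusp1), against 30.1% of all genes, and the lowest Atf3. It stood 2.54 above its group mean for Fos, 2.24 for Fosb and 1.02 for Egr1 on the log2 scale. Lymph node DKO replicate 2 was lowest of its group for 9 members, all but Jund. In spleen DKO replicate 2 was lowest of its group for 7 members but highest for Jund and Egr3. Most other immediate early genes were not highest in lymph node DKO/hA-I replicate 2. Of the 39 tested, that library had the highest value of its group for 10 and the lowest for 19, against 30.1% and 30.5% of all genes. Among the 6 nodes it was highest for 7 of the 39 and lowest for 13, against 14.7% and 15.2% of all genes. Of the 10 members it was highest among the 6 nodes for 4 and lowest for 1. Chosen after their values were seen, Zfp36, which speeds the decay of short-lived mRNAs, had 187 CPM there, against 106 to 127 CPM in the other nodes, while Maff had 6.15 CPM, against 9.79 to 13.95 CPM. The same library had the highest node sums of adipocyte markers (2278 CPM) and erythroid genes (342 CPM, against 23.6 to 112 CPM in the other nodes). Their part in the high Fos value was not tested.

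The spread within groups separated the members. Over the 6 nodes the SD around the group means was 1.6 for Fos, 1.42 for Fosb and 1.07 for Atf3 on the log2 scale, against a median of 0.24 over all genes, and 99.8%, 99.6% and 98.8% of genes were below these values. Jund had an SD of 0.03, with 0.2% of genes below it. In spleen Egr1 had the widest spread of the members (SD 0.78, 99% of genes below it) and Junb the narrowest (0.12, 21.1% of genes below it), with a median of 0.19 over all genes.

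The genes whose deviations were most like the mean of the 9 members above 5 CPM (all but Fosb) were Mtap1a, Kif3c, Lamb2, Lama4, Amotl1 and Fzd1. Their root mean square difference from that mean profile over the 12 libraries was 0.12 to 0.13 on the log2 scale, among 11891 candidates, where a flat profile would differ by 0.32. Mtap1a encodes a microtubule-associated protein, Kif3c a kinesin motor, Lamb2 and Lama4 laminin chains of basement membranes, Amotl1 an angiomotin family protein and Fzd1 a Wnt receptor. In lymph node DKO/hA-I replicate 2 they stood 0.22 to 0.39 above their group means, against 0.51 for the members' mean. The members differed there, from 2.54 for Fos and 1.02 for Egr1 to -0.03 for Egr2 and -0.32 for Atf3. These genes are thus like the average of the members and not like each of them.

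**Figure D4:**
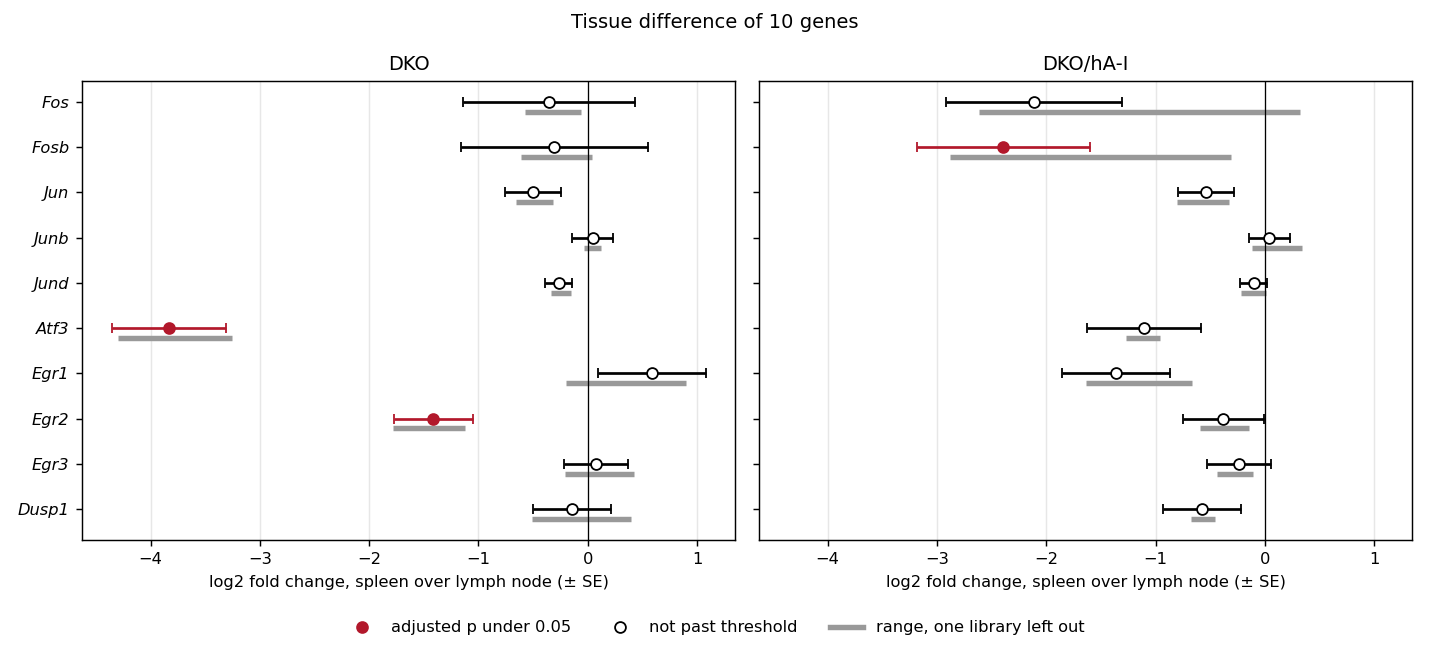
Log2 fold change of spleen over lymph node for the 10 genes in DKO and in DKO/hA-I mice, with bars of ± 1 SE (edgeR, 12-library fit). Filled red points passed an adjusted p of 0.05, and grey bars give the range when 1 library is left out. Atf3 and Egr2 are filled in DKO, and in DKO/hA-I Fosb is filled with a grey bar that ends at -0.31.

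Spleen was then compared with lymph node within each genotype. The animal codes of the tissues differ, so tissue and the set of animals cannot be told apart. In DKO mice Atf3 and Egr2 were lower in spleen, at 6.4 ± 1.23 CPM and 15.2 ± 6.4 CPM in spleen, against 90.3 ± 65.5 CPM and 40.0 ± 16.6 CPM in lymph node (SD, n = 3). No other member passed the test, where 22.8% of 14608 genes did and 11.3% were lower in spleen. Atf3 had a log2 fold change of -3.83 ± 0.53 (edgeR adjusted p = 0.000163), and it was called without any single library too. Egr2 had -1.41 ± 0.36 (edgeR adjusted p = 0.0128), with DKO spleen replicate 1 (22.5 CPM) just above DKO node replicate 2 (22.3 CPM). Its call was lost without spleen DKO replicate 2, spleen DKO replicate 3 or lymph node DKO replicate 3 (edgeR adjusted p = 0.0677, 0.0668 and 0.0706). Jund was lower in all 3 DKO spleens without passing the test (-0.27 ± 0.13, edgeR adjusted p = 0.152), as 16.4% of all genes were lower there. The other 7 had log2 fold changes between -0.50 (Jun) and 0.59 (Egr1).

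In DKO/hA-I mice Fosb alone passed the test, lower in spleen at 2.18 ± 0.548 CPM, against 11.4 ± 15.1 CPM in lymph node (log2 fold change -2.39 ± 0.79, edgeR adjusted p = 0.0409). The groups overlapped, and without lymph node DKO/hA-I replicate 2 the log2 fold change was -0.31 (edgeR adjusted p = 0.698). The call held without lymph node DKO/hA-I replicate 1 or 3 and was lost without any other single library and without a filter on low counts (edgeR adjusted p = 0.093). Of all genes, 25.7% were called and 11.8% were lower in spleen. Atf3, Egr1 and Dusp1 were lower in every spleen without passing the test, as 21.7% of all genes were. Their log2 fold changes were -1.11 ± 0.52, -1.37 ± 0.49 and -0.58 ± 0.36 (edgeR adjusted p = 0.147, 0.0599 and 0.281). In a fit of the 6 DKO/hA-I libraries alone Atf3 and Dusp1 were called (edgeR adjusted p = 0.0018 and 0.00506) and Fosb was not (0.21). Atf3 was also called without lymph node DKO replicate 2 (edgeR adjusted p = 0.00127), and Egr1 without spleen DKO replicate 1 or lymph node DKO/hA-I replicate 3 (0.0257 and 0.0444). Fos had -2.11 ± 0.81 (edgeR adjusted p = 0.0739), and 0.32 without lymph node DKO/hA-I replicate 2. It was called without lymph node DKO/hA-I replicate 1 or 3 (edgeR adjusted p = 0.0255 and 0.0217), and Jun without replicate 3 of that group (0.0172). Junb was nearly level between the tissues in both genotypes, at 0.05 ± 0.19 in DKO and 0.04 ± 0.19 in DKO/hA-I.

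A direct test asked whether the genotype difference in lymph node differed from that in spleen. No member passed, and 487 of 14608 genes did (3.33%). At an unadjusted p under 0.05 stood 2 members, Atf3 and Egr1, and 17.1% of all genes. Atf3 differed by 2.72 ± 0.73 on the log2 scale in the direction of a larger DKO excess in lymph node (edgeR adjusted p = 0.0613), and DESeq2 called it (adjusted p = 0.00205). It also passed without lymph node DKO replicate 2, at 3.18 (edgeR adjusted p = 5e-05), and over the other libraries left out in turn its adjusted p was 0.0844 to 0.161. Egr1 differed by -1.95 ± 0.7 (edgeR adjusted p = 0.161), and Egr2 by 1.03 ± 0.52 (edgeR adjusted p = 0.34).

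Other genes of the pathway were counted in lists beside the members. Among partners of AP-1 and other leucine zipper factors, 2 of 21 were called higher in DKO nodes and 0 lower, with a median log2 fold change of 0.40, where 3.95% of all genes were called higher. Among the called genes was Nfe2l2, the regulator of the antioxidant response, at 175 ± 41.5 CPM in DKO nodes and 94.5 ± 4.67 CPM in DKO/hA-I nodes (log2 fold change 0.9 ± 0.18, edgeR adjusted p = 0.031). Among 39 other immediate early genes 1 was called, the GTPase gene Rhob (0.96 ± 0.23, edgeR adjusted p = 0.0474), with a median of 0.23. That share is below that of all genes, and the 1 of 25 among the upstream genes is near it. Fosl1 and Egr4, relatives of Fos and Egr1, did not exceed 0.353 CPM in any library.

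Upstream of the members, 1 of 25 kinases and factors was called in DKO nodes, Map2k3, which activates p38 MAP kinase (log2 fold change 0.55 ± 0.12, edgeR adjusted p = 0.0388). The median of that list was -0.07, and 3.95% of all genes were called higher in DKO nodes. Of 15 MAP kinase phosphatases and feedback genes 2 were called higher, Dusp3 (0.78 ± 0.18) and the Ras pathway inhibitor Spred1 (0.67 ± 0.15; edgeR adjusted p = 0.0419 and 0.0435), with a median of 0.19. Of 10 Egr co-repressors and targets 2 were called higher, Rnf128 and Cd44. Rnf128, a ubiquitin ligase of T cell unresponsiveness, had 39.9 ± 29.6 CPM in DKO nodes and 2.17 ± 0.408 CPM in DKO/hA-I nodes (4.22 ± 0.66, edgeR adjusted p = 0.0175). Cd44, an adhesion receptor, had 319 ± 39.4 CPM in DKO nodes and 169 ± 20.9 CPM in DKO/hA-I nodes (0.93 ± 0.15, edgeR adjusted p = 0.0177). Both also passed the direct test between tissues (edgeR adjusted p = 0.0165 and 0.0276), as 3.33% of all genes did. Over DKO node replicates 1, 2 and 3 Rnf128 had 39.3, 10.6 and 69.8 CPM, and Cd44 had 277, 325 and 355 CPM. Replicate 2 was lowest for Rnf128, as for the lipid-laden macrophage marker sum, but not for Cd44. The part of cell content in the Rnf128 and Cd44 values was not tested. In these 5 lists no gene was called lower in DKO nodes.

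In spleen 0 genes of these 5 lists were called between the genotypes. The log2 fold change was positive in 19 of 21 AP-1 partners and leucine zipper factors and 32 of 39 other immediate early genes, with medians of 0.14 and 0.15, where it was positive in 51.6% of all genes. For phosphatases and feedback genes it was positive in 11 of 15, and for upstream kinases and factors in 12 of 25, with medians of 0.10 and 0. For Egr co-repressors and targets it was positive in 5 of 10, with a median of -0.008. Spleen DKO replicate 1 had the highest value of the 6 spleens for 8 of the 21 AP-1 partners and leucine zipper factors. It was also highest for 20 of the 39 other immediate early genes, against 20.3% of all genes. DKO/hA-I replicate 1 was lowest for 7 and 15 in these lists (21.9% of all genes), and DKO replicate 2 for 7 and 14 (23.8%). Of the 2 genes of largest CPM among the AP-1 partners, Atf4 had 191 ± 35.9 CPM in DKO spleens and 171 ± 28 CPM in DKO/hA-I spleens, and Creb1 155 ± 38 and 150 ± 20 CPM.

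Between tissues the lists were split. In DKO mice 8 of 39 other immediate early genes were called higher in spleen and 9 lower, and in DKO/hA-I mice 5 and 4. Over the whole table, 11.5% passed as higher in spleen and 11.3% as lower in DKO mice, with 14.0% and 11.8% in DKO/hA-I mice, so the DKO/hA-I counts are near those of all genes. The Notch target Hes1 had 20.0 ± 2.88 CPM in DKO spleens and 6.99 ± 0.603 CPM in DKO nodes (log2 fold change 1.52 ± 0.16, edgeR adjusted p = 2.35e-05). The matrix protein gene Ctgf had 90.8 ± 41.7 CPM in DKO spleens and 15.2 ± 1.38 CPM in DKO nodes (2.58 ± 0.3, edgeR adjusted p = 4.7e-05). Tnfaip3, which curbs NF-kB signalling, was lower in spleen in both genotypes (-0.96 ± 0.21 in DKO and -0.8 ± 0.21 in DKO/hA-I, edgeR adjusted p = 0.00518 and 0.0131). Among the phosphatases Dusp8 was higher and Dusp4 lower in spleen in both genotypes (log2 fold changes 1.86 and -1.08 in DKO, 2.11 and -1.29 in DKO/hA-I). Of the upstream genes Map2k3, Mapk14 and Rps6ka1 were higher in spleen in both genotypes, with log2 fold changes between 0.41 and 1.1.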

How the data were processed

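Per the labels' protocols, poly(A) RNA was isolated with a silica column kit and made into libraries with the Illumina RNA-Seq kit. The submitters' processing notes name Trimmomatic, Bowtie, TopHat, Cuffdiff and the build GRCm38 (mm10). The sources used here do not state the versions, the annotation, the counting program or whether it used strand.

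The deposited tables, 1 per tissue, hold raw read counts per library for 23284 gene symbols, per the file headers. Beside the counts the authors deposited p-values, q-values and a yes or no call for the genotypes, used here only where named. Their FPKM columns were not used.

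The 10 members and all gene and marker lists were chosen with earlier results of these data known, so nothing here is independent support for a pattern seen before. Tests of the counts used edgeR 4.0.16 under R 4.3.3 (filterByExpr with a minimum count of 10 and a minimum total of 15, TMM, robust quasi-likelihood test). Genotypes were compared in the 6 libraries of each tissue, and tissues and the genotype by tissue difference in 1 fit of all 12 libraries. A gene was called where its p, adjusted over all genes tested by Benjamini-Hochberg, was under 0.05. Log2 fold changes have standard errors and CPM values SDs over n = 3 libraries. Levels per kilobase use the longest GENCODE vM21 transcript with a curated RefSeq match. The prior count of log2 CPM was 2. The fits were tested on simulated counts.

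Each library has its own animal code in the labels. The p-values rest on the spread between libraries. Same replicate numbers do not mark shared animals, and deviations of same-numbered libraries did not run together (r across genes -0.142 to 0.118), so the numbers were not treated as pairs. All 10 members are named whatever their values. From each list up to 3 called genes per direction are named, or otherwise up to 2 of largest CPM as values, and some of these are left out for length or are not reported here. Where a gene was picked after its values were seen, the text says so. Alternatives were DESeq2 1.42.0, RLE factors, no filter on low counts, blocks for replicate number and for the middle number of the animal code, other sets of libraries in the fit, and each library left out in turn. Coordinates are those of RefSeq on GRCm38.p6, the build of the tables. The floor covers counting error only, as reads carried no molecular identifiers and are not independent molecules.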

Additional observations from a re-analysis of the deposited data

How the results depend on the processing

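RLE factors left every count of called members and of called genes within 1.5 times of its value. With the replicate number as a block, lymph node calls were 438 genes and 1 member (Atf3), the direct test between tissues called 299 genes, and the tissue difference in DKO/hA-I called 0 members. The block turned Fos in lymph node to 0.23 and Junb in the direct test to 0.008, and changed no other count by over 1.5 times. Not every library correlated best with its own number. DESeq2 called 1982 genes in lymph node, 962 genes and 1 member (Atf3) in the direct test. Without a filter on low counts 1 member (Egr2) was called in lymph node and 0 in the tissue difference in DKO/hA-I. The 12-library fit called 2253 genes in lymph node. Fits of 1 genotype alone called 2204 genes between tissues in DKO, and 2 members (Atf3 and Dusp1) in DKO/hA-I. The animal code block called 515 genes in spleen, with Fosb at -0.20 and Egr1 at -0.008. The cause was not tested.

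With 1 library left out in turn, genes called ran from 1 to 167 in spleen, from 115 to 2245 in lymph node and from 179 to 1160 in the direct test. Members called ran from 0 to 1 in spleen, 0 to 3 in lymph node, 1 to 2 between tissues in DKO, 0 to 4 between tissues in DKO/hA-I and 0 to 1 in the direct test. Log2 fold changes that changed sign ran in spleen from -0.24 to 0.41 for Fosb, -0.10 to 1.06 for Egr1 and -0.10 to 0.22 for Egr3. In lymph node they ran from -1.52 to 1.42 for Fos, -2.52 to 0.068 for Fosb, -0.67 to 0.001 for Egr3 and -0.20 to 0.73 for Dusp1. Between tissues in DKO they ran from -0.61 to 0.041 for Fosb, -0.036 to 0.12 for Junb, -0.20 to 0.90 for Egr1, -0.20 to 0.42 for Egr3 and -0.51 to 0.40 for Dusp1. In DKO/hA-I they ran from -2.61 to 0.32 for Fos, -0.12 to 0.34 for Junb and -0.22 to 0.015 for Jund. In the direct test they ran from -2.27 to 0.68 for Fos, -2.605 to 0 for Fosb, -0.30 to 0.18 for Jun and -0.16 to 0.30 for Junb. The sign changes of Fos, and those of Fosb in lymph node and the direct test, came without lymph node DKO/hA-I replicate 2. Fosb changed sign in spleen without DKO replicate 1 or 3 or DKO/hA-I replicate 3, and between tissues in DKO without spleen DKO replicate 2. Fosb had 11 to 38 counts in 11 libraries, which limits its precision.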
